A study of Mus musculus with 15 samples.

Results

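Knockdown of the RNA helicase Ddx10 was set directly against knockdown of the RNA helicase Ddx27 in the mouse embryonic stem cell line E14. The comparison rests on 6 of the 15 libraries of the study, the 3 labelled Ddx10KD and the 3 labelled Ddx27KD, taken by their treatment labels and paired by replicate number. The title of the study names R-loops (stretches where RNA is paired with a DNA strand), the proteins found with them, and ribosomal RNA processing. All cells were grown on gelatin at 0.2%, received 400 ng of small interfering RNA with Lipofectamine 2000 over 16 h, and were harvested at 48 h for RNA sequencing after oligo-dT capture. The groups differed only in the target of the small interfering RNA, which was Ddx10 or Ddx27 here, Ddx24 or Ddx54 in 2 further groups, and EGFP in the control group (EGFPKD). Each group held 3 replicates of 1 cell line, and nothing in the labels says that they were separate cultures, so p-values measure the spread between these samples.

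Both proteins are DEAD-box helicases of the nucleolus, where ribosomal RNA is made and folded into the ribosomal subunits. The yeast relative of Ddx10 acts in the processing complex of the small subunit, and Ddx27 is known to act with the Pes1, Bop1 and Wdr12 complex on the precursor of the large subunit. When subunit assembly is disturbed, free ribosomal proteins are known to hold Mdm2 and so to raise the activity of p53.

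The 6 libraries held 26836946 to 27694846 expected counts (estimated reads per gene), and 16983 to 17168 genes had a count. Of 23845 genes, 14335 passed the count filter and were tested. The summed level of 10 embryonic stem cell markers was 8082 to 8382 TPM (a transcript level scaled for gene length) in Ddx10KD and 7991 to 8301 TPM in Ddx27KD. The summed level of 6 endoderm markers was 4.82 to 6.60 TPM in Ddx10KD and 4.04 to 8.18 TPM in Ddx27KD, and that of 5 trophoblast markers 7.46 to 9.25 and 8.37 to 13.5 TPM, with Tpbpa at 0 in every one of these libraries. The summed level of 7 fibroblast markers was 10.9 to 15.8 and 10.7 to 15.6 TPM, nearly all of it Thy1, with Lum and Postn at 0. These are bulk samples, so fewer cells with a transcript and less of it per cell cannot be told apart.

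Each targeted transcript was low in its own group and not in the other. Ddx10 (chr9:53098454-53248170; coordinates are RefSeq gene spans on GRCm38.p6, the patch release of mm10) stood at 33.3, 26.7 and 21.0 CPM (counts scaled to library size, with TMM factors) in Ddx10KD replicates 1 to 3 and at 123, 128 and 135 CPM in Ddx27KD. Ddx27 (chr2:167015313-167034945) stood at 209, 211 and 188 CPM in Ddx10KD and at 47.2, 46.4 and 44.0 CPM in Ddx27KD. The 3 low values lay far below the 3 high ones for both genes, and the level left in the own knockdown was 18.5% of EGFPKD for Ddx10 and 22.7% for Ddx27. The fitted log2 difference, Ddx10KD minus Ddx27KD, was -2.25 ± 0.09 (SE) for Ddx10 (adjusted p = 2.30e-11) and 2.14 ± 0.04 for Ddx27 (adjusted p = 2.00e-17). Ddx24 (-0.10 ± 0.06, adjusted p = 0.359) and Ddx54 (0.04 ± 0.06, adjusted p = 0.778) did not pass the test.

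Beyond the targets, the groups differed in many genes by small amounts. With the replicate number as a block, 766 of 14335 genes (5.34%) passed an adjusted p of 0.05 (edgeR quasi-likelihood test, Benjamini-Hochberg adjustment) and are called here. Of these, 342 (2.39%) were higher in Ddx10KD and 424 (2.96%) lower. The median size of a called difference was 0.234 on the log2 scale, and 16 called genes differed by at least 2-fold. All 766 had the same sign in the 3 replicate pairs, as had 44.8% of all tested genes. The 3 and 3 CPM values did not overlap for 591 of the called genes (77.2%), against 17.1% of all tested genes, 8.7% with Ddx10KD the lower group.

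Without the block, 32 genes (0.223%) were called, all of them among the 766, with 9 higher and 23 lower in Ddx10KD. Leaving out any 1 library of Ddx10KD, or replicate 1 or 2 of Ddx27KD, left 208 to 332 called genes. Without replicate 3 of Ddx27KD the count was again 766, but only 516 of these genes were among the 766 called with all libraries. Leaving out all libraries of replicate number 1 left 48. Of the 86 called genes that the naming rule gave, 21 were called in every fit with libraries left out, namely Ddx10, Ddx27, Eif4b, Rnf10, Cox7a2l, Neat1, Eef1b2, Eif3f, Cox6b2, Atf4, Rps20, Rpl7, Rpl17, Ibtk, Foxk2, Akr1a1, Sdf4, Mageb16, Bex1, Eif6 and Chordc1.

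**Figure D1:**
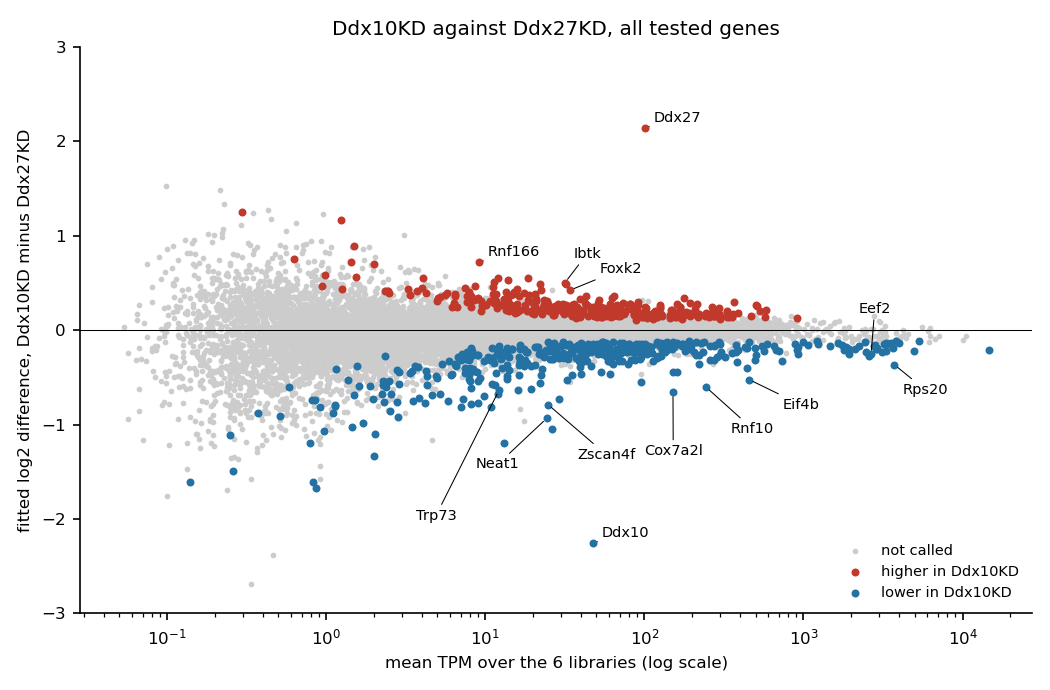
Each point is 1 of the 14335 tested genes, with its mean TPM over the 6 libraries (log scale) on the x axis and its fitted log2 difference, Ddx10KD minus Ddx27KD, on the y axis. The 342 called higher (red) and 424 called lower (blue) mostly lie within 0.5 of 0, with Ddx27 at 2.14 and Ddx10 at -2.25 far outside.

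For scale, 3262 genes (22.8%) were called higher and 3048 (21.3%) lower in Ddx10KD against EGFPKD, and 3334 (23.3%) higher and 3237 (22.6%) lower in Ddx27KD against EGFPKD. Those comparisons share the same 3 control libraries, so their values are given only side by side in the following.

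The clearest differences outside the targets were in a small group of abundant transcripts that were lower in Ddx10KD. Eif4b, a cofactor of the helicase that unwinds messenger RNA at initiation, stood at 739, 692 and 661 CPM in Ddx10KD and at 1023, 984 and 999 CPM in Ddx27KD. Rnf10, a ubiquitin ligase that acts on small ribosomal subunits, stood at 298, 270 and 304 against 466, 428 and 430 CPM. Cox7a2l, an assembly factor of respiratory supercomplexes, stood at 59.3, 56.8 and 59.7 against 94.9, 91.0 and 91.7 CPM. In each of these 3 genes every Ddx10KD library lay below every Ddx27KD library, which the rule for naming genes by size or by p required. The fitted differences were -0.52 ± 0.04 for Eif4b (chr15:102073773-102097173; adjusted p = 9.67e-08), -0.60 ± 0.05 for Rnf10 (chr5:115241770-115272921; adjusted p = 5.05e-07) and -0.66 ± 0.06 for Cox7a2l (chr17:83501917-83514333; adjusted p = 7.06e-06). All 3 were also called without the block. In EGFPKD the mean levels were 893, 417 and 87.3 CPM. The Ddx24KD means (968, 427 and 91.8 CPM) and Ddx54KD means (947, 410 and 92.3 CPM) lay nearer to Ddx27KD than to Ddx10KD.

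Neat1, the long noncoding RNA that scaffolds paraspeckles, showed the largest called difference in the lower direction among genes named by size, the targets aside. It stood at 27.7, 20.5 and 28.7 CPM in Ddx10KD and at 53.1, 46.4 and 46.6 CPM in Ddx27KD. The groups did not overlap, as the naming rule required, and the Ddx10KD mean was 52.6% of the Ddx27KD mean. The fitted difference was -0.94 ± 0.10 (chr19:5824708-5845480; adjusted p = 5.04e-05, and 0.012 without the block). The EGFPKD libraries stood at 24.2, 20.02 and 19.6 CPM. Against them, Neat1 rose by 1.20 in Ddx27KD (edgeR adjusted p = 4.6e-08) and differed by 0.26 in Ddx10KD (adjusted p = 0.064). The mean levels of 48.9 CPM in Ddx24KD and 51.4 CPM in Ddx54KD were close to the 48.7 CPM of Ddx27KD, so the high level was not particular to Ddx27KD.

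Other genes lower in Ddx10KD by size were Zbp1 (-0.77, a sensor of Z-form nucleic acids), Trp73 (-0.64, a relative of p53) and Dll1 (-0.64, a Notch ligand), together with 5 Zscan4 genes. Trp73 stood at 16.6, 22.9 and 27.1 CPM in Ddx10KD, at 34.0, 34.6 and 33.5 CPM in Ddx27KD and at 3.47, 5.34 and 4.75 CPM in EGFPKD. Dll1 stood at 16.1, 18.5 and 28.2 CPM in Ddx10KD, at 31.7, 30.3 and 33.7 CPM in Ddx27KD and at 4.68, 4.63 and 5.89 CPM in EGFPKD. Both genes were far above control in either knockdown, and replicate 3 of Ddx10KD lay nearest to Ddx27KD. Cox6b2, a testis form of a cytochrome c oxidase subunit, was likewise above control in both groups (16.0, 20.1 and 15.8 CPM in Ddx10KD, 23.2, 28.4 and 24.0 CPM in Ddx27KD, 7.35, 8.59 and 7.84 CPM in EGFPKD) and lower in Ddx10KD by -0.55 ± 0.06 (adjusted p = 5.04e-05). Trp73, Dll1, Zbp1 and Cox6b2 were not called without the block, and the first 3 were lost in 5 to 7 of the 12 fits with libraries left out.

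Genes higher in Ddx10KD showed smaller differences. Foxk2, a forkhead transcription factor, stood at 98.1, 87.0 and 101 CPM in Ddx10KD and at 71.6, 63.5 and 78.0 CPM in Ddx27KD. Sdf4, a calcium-binding protein of the Golgi, stood at 71.4, 68.1 and 72.9 against 57.2, 55.9 and 52.6 CPM. Ibtk, named as an inhibitor of Bruton tyrosine kinase, stood at 103, 95.8 and 107 against 67.7, 68.8 and 78.6 CPM. The groups did not overlap in any of these 3 genes, again a condition of the naming rule. The differences were 0.42 ± 0.05 for Foxk2 (adjusted p = 0.000104), 0.36 ± 0.04 for Sdf4 (adjusted p = 0.00011) and 0.50 ± 0.06 for Ibtk (adjusted p = 0.000235). Against EGFPKD, Foxk2 and Sdf4 were called higher in Ddx10KD (0.46 and 0.45) and not called in Ddx27KD (0.04 and 0.09). Ibtk was called lower in Ddx27KD (-0.56) and not called in Ddx10KD (-0.05). Its mean was 71.7 CPM in Ddx27KD, 79.1 CPM in Ddx24KD and 72.1 CPM in Ddx54KD, so the low level was not particular to Ddx27KD.

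Rnf166, a RING-type ubiquitin ligase, stood at 9.74, 10.03 and 8.88 CPM in Ddx10KD, at 5.90, 5.46 and 6.02 CPM in Ddx27KD and at 7.38, 8.59 and 7.25 CPM in EGFPKD. The control libraries lay between the 2 knockdowns, and the direct difference was 0.72 ± 0.11 (chr8:122466145-122476074; adjusted p = 0.00147). Its adjusted p reached 0.0525 in 1 of the 12 fits with libraries left out. Ccnd2, which encodes cyclin D2, stood at 64.1, 64.1 and 56.4 CPM in Ddx10KD and at 37.2, 45.4 and 42.3 CPM in Ddx27KD, below the 93.1, 81.3 and 91.9 CPM of EGFPKD in both. The difference was 0.56 ± 0.10 (adjusted p = 0.00479, and 0.0779 without the block). Further genes higher by size were Ptpla (0.55), Tmem181a (0.51), Usp11 (0.49, a deubiquitinase), Orai1 (0.47, a calcium channel), Ccdc112 (0.46) and Trim47 (0.45). Raet1c (0.53) and Raet1a (0.49), ligands of an activating receptor of natural killer cells, are near-identical copies whose reads the counting may split, so their values are uncertain. By p, the list also held Akr1a1 (0.30, an aldehyde reductase) and the X-linked genes Mageb16 (0.37) and Bex1 (0.26).

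**Figure D2:**
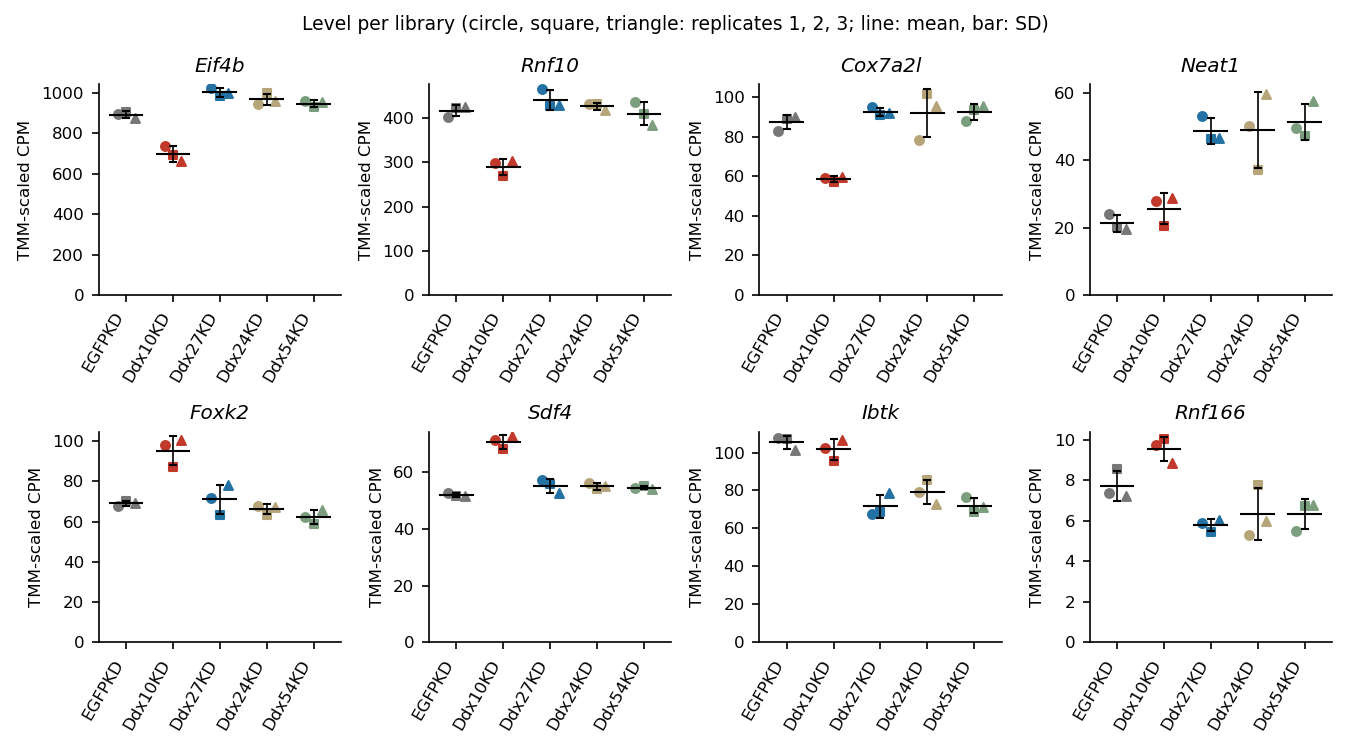
TMM-scaled CPM (y axis, from 0) of 8 leading genes in each of the 15 libraries by group (x axis), where symbols are replicates, lines are means and bars are SD. Ddx10KD lies apart from the other groups for Eif4b, Rnf10, Cox7a2l, Foxk2 and Sdf4, while for Neat1 and Ibtk it lies near EGFPKD (25.6 against 21.3 CPM, and 102 against 105 CPM).

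Among the gene lists, cytosolic ribosomal proteins held the most members called lower in Ddx10KD by number. By share, the list of 2-cell-like genes, described further on, held more (45.5%). All lists were chosen with earlier results of these data known, so their counts only describe them. For every list, the shares over all tested genes to set beside its direct counts are 2.39% higher and 2.96% lower. Of 79 tested genes of cytosolic ribosomal proteins, 27 (34.2%) were called lower, 0 were called higher and 68 had a difference below 0. The median was -0.093 (-0.12, -0.10 and -0.08 in pairs 1, 2 and 3), beside -0.00066 over all tested genes. At an unadjusted p under 0.05, 48 members were lower and 1 higher, and DESeq2 called 33 lower and 1 higher. Without the block, edgeR called 0 members.

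Rps20 led the ribosomal proteins at 684, 698 and 684 CPM in Ddx10KD and 848, 982 and 841 CPM in Ddx27KD. Rpl7 stood at 1226, 1234 and 1168 against 1408, 1473 and 1378 CPM, and Rpl17 at 777, 819 and 752 against 900, 960 and 892 CPM. The 3 and 3 values did not overlap in these genes, with differences of -0.37 ± 0.05 for Rps20 (adjusted p = 0.0003), -0.23 ± 0.03 for Rpl7 (adjusted p = 0.000341) and -0.23 ± 0.03 for Rpl17 (adjusted p = 0.000872). Rpl10 followed with -0.20 ± 0.03 (adjusted p = 0.00122). At the other end, Rplp2 had 0.15 ± 0.05 (adjusted p = 0.0719). The summed CPM of the 79 genes was 69290, 73476 and 68508 in Ddx10KD and 75642, 78096 and 71643 in Ddx27KD, so every pair had the lower sum in Ddx10KD while the groups overlapped.

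The control libraries give a scale for these levels. Against EGFPKD, 7 members were called higher and 14 lower in Ddx10KD, with a median of -0.01, and 34 were called higher and 2 lower in Ddx27KD, with a median of 0.09. Over all tested genes, 22.8% were called higher and 21.3% lower in Ddx10KD, and 23.3% and 22.6% in Ddx27KD. Rps20 stood at 803, 890 and 839 CPM in EGFPKD, and its log2 difference, Ddx10KD minus EGFPKD, was -0.29 ± 0.05 (SE, edgeR adjusted p = 6.91e-05). Rps10 stood at 595, 650.4 and 618 CPM in EGFPKD, and its log2 difference, Ddx27KD minus EGFPKD, was 0.23 ± 0.04 (SE, edgeR adjusted p = 0.000111). Many ribosomal protein genes have processed pseudogenes that share their reads, so the values of single members are uncertain. The number called lower fell to between 13 and 18 when any Ddx10KD library, or replicate 1 or 2 of Ddx27KD, was left out, and to 4 without replicate number 1.

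Ribosomal protein messages are short, with a median transcript length of 684 nt in the files. The 39 tested nuclear-encoded subunits of the respiratory chain have a median of 772 nt. Of these, 2 were called higher (Cox6c, 0.20, and Ndufs1, 0.13) and 0 lower (1 at an unadjusted p under 0.05, and 0 by DESeq2), with a median of 0.041. When all genes were split by length into 5 bins of equal number, the medians ran from -0.011 to 0.0081.

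Factors of translation that are not part of the ribosome differed in both directions. This list of 34 genes was added after values had been seen, so its counts describe it and support nothing. In it, 8 members were lower in Ddx10KD, namely Eif4b, Eif3f, Eef1b2, Eef2, Eef1a1, Eef1g, Eif1 and Eif3h, and 4 were higher, namely Eif5 (0.23), Eif1ax (0.19), Eif3d (0.17) and Eef1d (0.15). Eef1a1, the factor that brings aminoacyl-tRNA to the ribosome, stood at 11229, 11790 and 11289 CPM in Ddx10KD and at 13134, 13617 and 13057 CPM in Ddx27KD. Eef2, the translocation factor, stood at 3649, 3590 and 3602 against 4394, 4197 and 4361 CPM, and Eef1b2, an exchange factor for Eef1a1, at 591, 597 and 608 against 739, 774 and 738 CPM. Eif3f, a subunit of the eIF3 complex, stood at 245, 242 and 234 against 314, 308 and 288 CPM. No Ddx10KD library reached the Ddx27KD range in these 4 genes, which for Eef1b2 and Eif3f the naming rule required. The differences were -0.21 ± 0.03 (Eef1a1), -0.26 ± 0.03 (Eef2), -0.33 ± 0.03 (Eef1b2) and -0.34 ± 0.04 (Eif3f), at adjusted p from 2.27e-05 (Eef1b2) to 0.000214 (Eef1a1). Together with Eif4b, these are the 5 members also called without the block. The 4 members called higher in Ddx10KD were not.

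**Figure D3:**
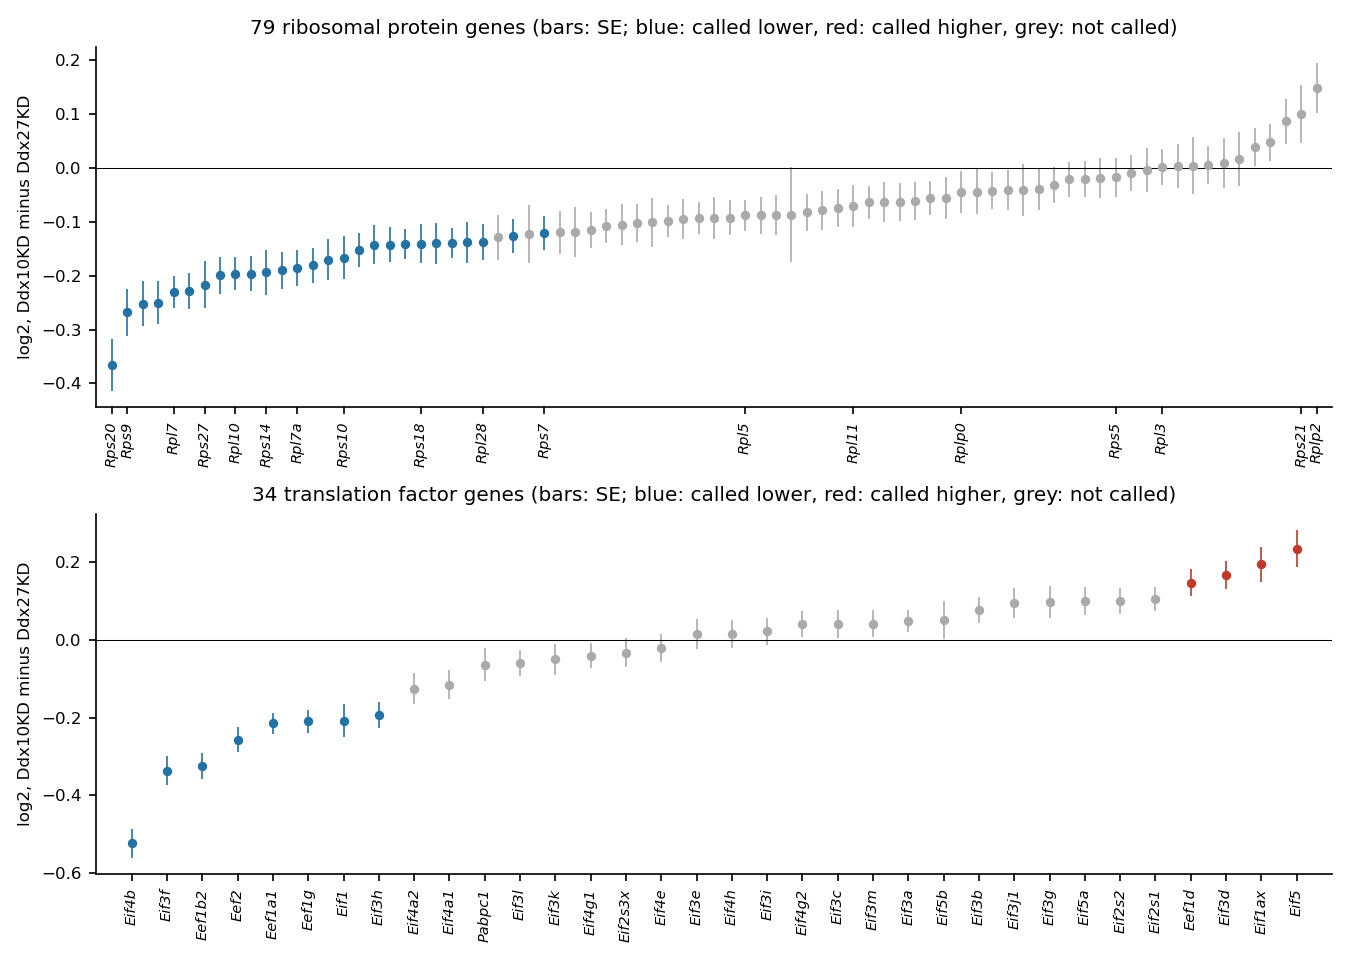
Fitted log2 difference, Ddx10KD minus Ddx27KD, with its SE for each of the 79 ribosomal protein genes (top) and 34 translation factor genes (bottom), in order of size, with some members labelled in the top panel. There 27 genes are called lower and 0 higher, and in the bottom panel 8 are called lower, led by Eif4b at -0.52, and 4 higher.

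Many messages of this machinery begin with a run of pyrimidines at the start of transcription, known as the terminal oligopyrimidine tract, through which their translation is regulated. Annotated starts are printed here for the 5 translation factors called also without the block, for Rps9 and Rpl37, which had the largest differences (-0.27 and -0.25) among the 21 ribosomal protein genes called lower with an annotated start, and for Rpl10, because they show that genes called lower include starts with such a run and starts without. They come from RefSeq on GRCm38.p6, read 5′ to 3′ on the transcribed strand from 15 bases before to 15 bases from the start, and capitals mark a C followed by at least 5 letters that are each C or T, beginning within 10 bases of the start on that strand.
Eef1a1: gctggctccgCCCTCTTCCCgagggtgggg
Eif3f: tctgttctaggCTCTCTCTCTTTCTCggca
Eif4b: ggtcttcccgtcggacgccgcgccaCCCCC
Rps9: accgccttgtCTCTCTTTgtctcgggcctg
Eef2: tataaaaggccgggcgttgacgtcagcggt
Eef1b2: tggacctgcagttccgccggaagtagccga
Rpl37: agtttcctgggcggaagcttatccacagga
Rpl10: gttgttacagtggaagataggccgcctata
The windows lie at chr9:78481710-78481739 on the minus strand (Eef1a1), and on the plus strand at chr7:108934400-108934429 (Eif3f), chr15:102073758-102073787 (Eif4b), chr7:3704026-3704055 (Rps9), chr10:81176616-81176645 (Eef2), chr1:63176816-63176845 (Eef1b2), chr15:5116598-5116627 (Rpl37) and chrX:74270801-74270830 (Rpl10). All 8 genes were called lower in Ddx10KD. The run is in the first 4 windows and not in the last 4, a split that depends on which genes are printed. In Eif4b the run begins 10 bases after the start, the limit of the search, and goes past the end of the window.

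The run was found at 32 of 58 annotated starts of ribosomal protein genes (55.2%), beside 21.9% of 27025 starts in the whole table and 23.9% of those of tested genes. Among the ribosomal protein genes it was at 11 of 21 starts of members called lower (52.4%) and at 21 of 37 of the others (56.8%). It was at 28.5% of starts of all genes called lower and at 19.2% of those called higher. With ribosomal protein and translation factor genes left out, the run was at 26.3% of starts of genes called lower. For translation factors it was at 7 of 27 starts (25.9%), and for respiratory chain subunits at 9 of 28 (32.1%). Annotated starts can differ from those used in these cells, so a window without the run says only that these letters are not there.

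Among assembly factors of the large subunit, the particle on which Ddx27 is known to act, most called members were higher in Ddx10KD. Of 53 tested, 6 (11.3%) were called higher in Ddx10KD and 1 lower, and 39 had a difference above 0, with a median of 0.033. Eif6, which keeps the large subunit from joining early, stood at 150, 148 and 145 CPM in Ddx10KD, 127, 122 and 115 CPM in Ddx27KD and 147, 152 and 156 CPM in EGFPKD. Wdr12, the partner of Pes1 and Bop1, stood at 89.98, 87.7 and 86.6 CPM in Ddx10KD, 79.3, 78.7 and 73.7 CPM in Ddx27KD and 89.5, 94.0 and 91.6 CPM in EGFPKD. For both genes the Ddx27KD libraries were the low ones of these groups. The differences were 0.28 ± 0.04 (Eif6, adjusted p = 0.00143) and 0.19 ± 0.04 (Wdr12, adjusted p = 0.00989). In Ddx24KD and Ddx54KD the mean levels were 128 and 127 CPM for Eif6, and 83.0 and 81.3 CPM for Wdr12. For both genes these means lay below those of Ddx10KD and EGFPKD, so a low level was not particular to Ddx27KD. Tma16 (0.20), Wdr74 (0.17), Mrto4 (0.17) and Noc2l (0.14) were the other 4 called higher.

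Gltscr2, a large subunit assembly factor also known as Nop53, was the member called lower. It stood at 209, 218 and 207 CPM in Ddx10KD, 258, 266 and 246 CPM in Ddx27KD and 209, 226 and 219 CPM in EGFPKD, a difference of -0.28 ± 0.04 (adjusted p = 0.00124). Here the Ddx27KD libraries were the high ones of these groups, with means of 253 CPM in Ddx24KD and 262 CPM in Ddx54KD likewise high. Of these 7 genes, Eif6 and Gltscr2 were also called without the block, each at an adjusted p of 0.0484. The number called higher fell to between 1 and 3 without any Ddx10KD library or replicate 1 or 2 of Ddx27KD.

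Of 52 assembly factors of the small subunit, the particle of Ddx10, Bysl was called higher (0.14 ± 0.04, adjusted p = 0.0494) and Nat10, which acetylates ribosomal RNA, lower (-0.15 ± 0.04, adjusted p = 0.0194), and the median was 0.025. That is 1.9% each way, beside 2.39% higher and 2.96% lower over all tested genes. Neither gene was called without the block, and the calls were lost in 11 (Bysl) and 8 (Nat10) of the 12 fits with libraries left out. The groups overlapped for Bysl. The difference between the small and large subunit lists was not tested. Of 17 core and assembly proteins of small nucleolar ribonucleoproteins, edgeR called 0 (2 higher at an unadjusted p under 0.05, 1 called higher by DESeq2 and 0 by limma-voom). Of 15 genes of the RNA polymerase I machinery, Polr1c was called lower (-0.17 ± 0.05, adjusted p = 0.0432). Of 12 host transcripts of small nucleolar RNAs, Snhg5 was called lower (-0.24 ± 0.05, adjusted p = 0.00585).

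Among 46 other DEAD-box and DEAH-box helicases, 3 (6.5%) were called lower in Ddx10KD and 2 (4.3%) higher. The shares over all tested genes were 2.96% lower and 2.39% higher. Ddx17, an abundant nuclear helicase, stood at 403, 378 and 397 CPM in Ddx10KD and at 474, 447 and 434 CPM in Ddx27KD, without overlap (-0.20 ± 0.04, adjusted p = 0.00716). Ddx6 (-0.15) and Dhx9 (-0.16) were the other 2 lower, and Ddx50 (0.20) and Ddx3x (0.15) were higher. The list's median was -0.0086, and 0 of the 5 were called without the block. Of 28 factors that limit or resolve R-loops, Tdrd3 (0.40 ± 0.08, adjusted p = 0.00858) and Top1, a topoisomerase that relaxes DNA (0.13 ± 0.04, adjusted p = 0.0479), were called higher and 0 lower (2 lower at an unadjusted p under 0.05, 0 by DESeq2). Neither was called without the block (adjusted p = 0.0814 for Tdrd3 and 0.552 for Top1), and the calls were lost in 4 (Tdrd3) and 10 (Top1) of the 12 fits with libraries left out. The helicases Ddx17 and Dhx9, called lower above, are not in this list, so the count of 0 lower holds for its 28 members only.

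Genes of the 2-cell-like state, in which a small share of embryonic stem cells transcribe genes of the early embryo, were lower in Ddx10KD. Of 22 tested members, 10 (45.5%) were called lower and 0 higher (0 higher at an unadjusted p under 0.05 and by DESeq2), and 21 had a difference below 0. The median was -0.55 (-0.46, -0.70 and -0.54 in the 3 pairs). Summed over the 5 measured Zscan4 genes, which mark this state, the level was 51.5, 38.5 and 33.5 CPM in Ddx10KD and 81.8, 70.8 and 56.8 CPM in Ddx27KD. Within each replicate number Ddx10KD was the lower, and the highest Ddx10KD library lay below the lowest of Ddx27KD. The mean was 41.2 ± 9.27 CPM in Ddx10KD, 69.8 ± 12.5 in Ddx27KD and 49.8 ± 8.11 in EGFPKD (SD, n = 3 each), with 96.3 ± 19.4 in Ddx24KD and 78.1 ± 8.22 in Ddx54KD.

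By gene, the differences were -0.82 ± 0.20 for Zscan4a (adjusted p = 0.024), -0.82 ± 0.20 for Zscan4b (adjusted p = 0.0244), -0.68 ± 0.16 for Zscan4c (adjusted p = 0.0204), -0.69 ± 0.18 for Zscan4d (adjusted p = 0.034) and -0.79 ± 0.16 for Zscan4f (adjusted p = 0.00878). These genes lie in a cluster on chromosome 7 and are near-identical copies, so reads may be split between them, which the sum avoids. The other called members were Gm2022 (-0.75), Gm2016 (-0.52), BB287469 (-0.78), Gm5662 (-0.73) and Gm8300 (-0.58), likewise members of repeated families. Dux, a transcription factor that opens this program, stood at 1.03, 0.553 and 0.509 CPM in Ddx10KD, 0.821, 0.837 and 0.850 CPM in Ddx27KD and a mean of 0.282 CPM in EGFPKD. Its groups overlapped (-0.26 ± 0.32, adjusted p = 0.694).

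Against EGFPKD, 1 member of the 2-cell-like list was called higher in Ddx10KD and 11 in Ddx27KD, with medians of -0.08 and 0.45. The shares called higher over all tested genes were 22.8% and 23.3%. Without the block, Gm2022 and Gm2016 were called directly between the knockdowns and the Zscan4 genes were not. The number called was 2 or 3 without replicate 2 or 3 of Ddx10KD or without replicate 1 or 2 of Ddx27KD, and 0 without replicate number 1, with 6 by DESeq2.

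**Figure D4:**
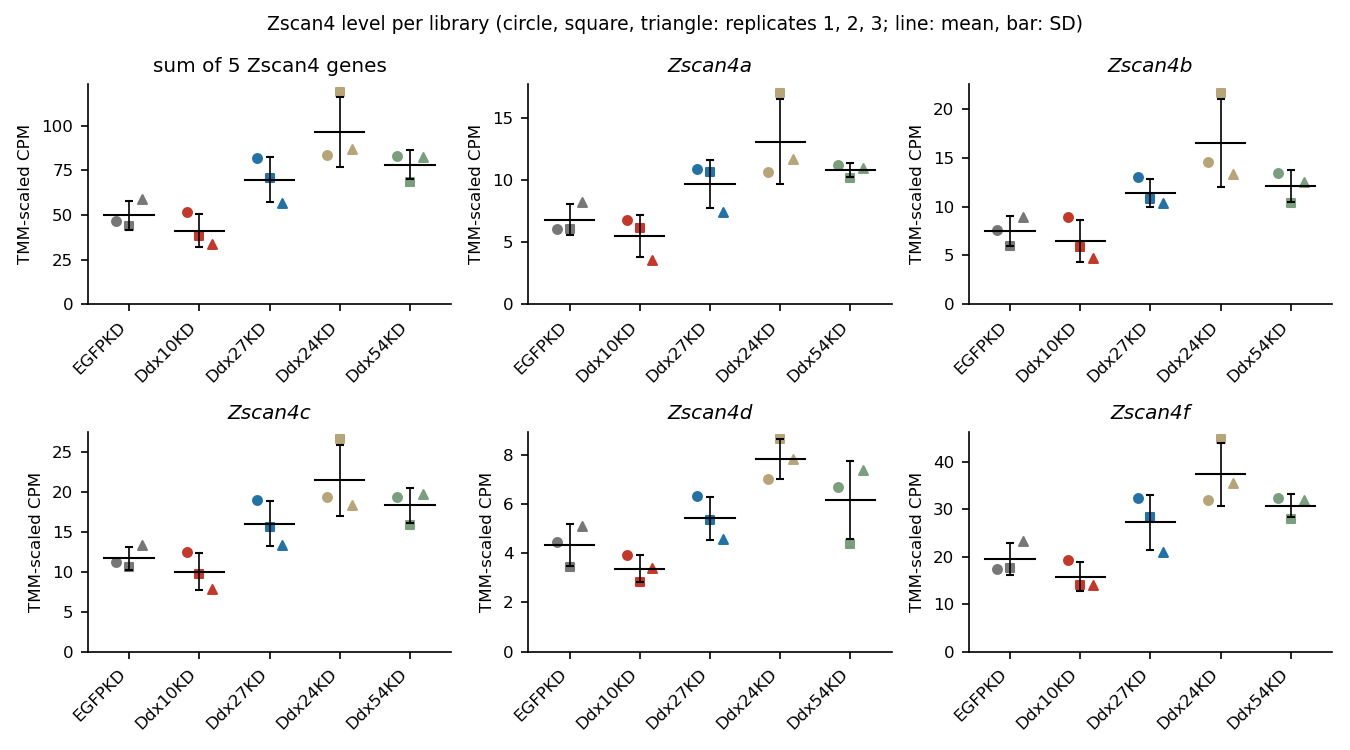
TMM-scaled CPM (y axis, from 0) of the summed 5 Zscan4 genes and of each gene in the 15 libraries by group (x axis), where symbols are replicates, lines are means and bars are SD. The Ddx10KD sums (33.5 to 51.5) lie in the range of EGFPKD or below it, and the Ddx27KD sums (56.8 to 81.8) lie above every Ddx10KD sum.

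Of 38 tested p53 targets, 33 were called higher than EGFPKD in Ddx10KD, beside 22.8% of all tested genes, with a median of 1.07. In Ddx27KD 35 targets were, beside 23.3%, with a median of 1.36. Directly, 4 were called lower in Ddx10KD (Btg2, Zfp365, Apaf1 and Ckap2) and 1 higher (Xpc, a DNA repair factor, 0.24), with a median of -0.166 and 33 members below 0. The pair medians were -0.30, -0.17 and -0.0062, so pair 3 was close to 0. Btg2, an antiproliferative factor, stood at 70.5, 69.2 and 89.8 CPM in Ddx10KD, 117, 99.4 and 96.9 CPM in Ddx27KD and 21.2, 22.7 and 24.0 CPM in EGFPKD (-0.46 ± 0.10, adjusted p = 0.0136). Zfp365 differed by -0.44, Apaf1, the scaffold of the apoptosome, by -0.26, and Ckap2 by -0.18.

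Mdm2, the ligase that degrades p53, stood at 301, 359 and 389 CPM in Ddx10KD and at 444, 468 and 427 CPM in Ddx27KD. The values did not overlap, but the difference of -0.36 ± 0.12 did not pass (adjusted p = 0.0798). Cdkn1a, the p21 cell cycle inhibitor, stood at 78.9, 82.7 and 91.1 against 96.1, 93.2 and 88.6 CPM, with overlap (-0.14 ± 0.13, adjusted p = 0.568). Trp53 itself stood at 792, 792 and 755 against 808, 768 and 716 CPM (0.03 ± 0.04, adjusted p = 0.721). Of 15 regulators, Mdm4 was called lower (-0.23 ± 0.05, adjusted p = 0.0187). The number of targets called lower ranged from 0 to 14 when 1 library was left out, with 14 without replicate 3 of Ddx27KD, 0 without Ddx10KD replicate 1 or 2 or Ddx27KD replicate 1 or 2, and 1 without Ddx10KD replicate 3.

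Genes of G2 and mitosis were called in the lower direction only. Of 26 members, 9 (34.6%) were called lower and 0 higher (1 higher at an unadjusted p under 0.05, 0 by DESeq2), 24 had a difference below 0, and the median was -0.104. Their summed level was 6035, 6132 and 6094 CPM in Ddx10KD and 6448, 6659 and 6583 CPM in Ddx27KD, without overlap. Ube2c, a ubiquitin-conjugating enzyme of the anaphase-promoting complex, stood at 269, 270 and 253 against 316, 326 and 276 CPM (-0.21 ± 0.04, adjusted p = 0.0083). Kif20a, a mitotic kinesin, had -0.15, Nusap1 -0.19, Mad2l1, a spindle checkpoint protein, -0.23, and Aurka, Anln, Tpx2, Mki67 and Top2a -0.13 to -0.16. Against EGFPKD, 3 were called higher and 10 lower in Ddx10KD, and 10 higher and 2 lower in Ddx27KD. The shares over all tested genes were 22.8% higher and 21.3% lower in Ddx10KD, and 23.3% and 22.6% in Ddx27KD. Without the block 0 of the 9 were called (DESeq2 with it called 11), and between 1 and 6 were when a Ddx10KD or Ddx27KD library was left out. With all libraries of a replicate number left out, at most 2 members were called lower, and 0 without number 1. Of 40 genes of DNA replication and S phase, E2f1 was called higher (0.27 ± 0.05, adjusted p = 0.0042) and Rrm2 lower (-0.13), with a median of 0.011. That is 2.5% each way, near the 2.39% higher and 2.96% lower of all tested genes.

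Markers of pluripotency were close between the groups. Of 25 members, 3 were called lower in Ddx10KD, namely Tdgf1 (-0.22), Dppa2 (-0.17) and Sox2 (-0.14), and 0 higher (2 at an unadjusted p under 0.05, 0 by DESeq2), with a median of 0.0052. None of the 3 was called without the block (adjusted p = 0.312, 0.35 and 0.313), and the calls were lost in 3 (Tdgf1), 7 (Dppa2) and 9 (Sox2) of the 12 fits with libraries left out, for Sox2 also without replicate 1 or 2 of EGFPKD. Sox2 stood at 641, 659 and 662 CPM in Ddx10KD, 753, 689 and 723 CPM in Ddx27KD and 597, 589 and 616 CPM in EGFPKD. The Ddx10KD libraries lay between the other groups (adjusted p = 0.0404). Nanog stood at 469, 491 and 422 against 464, 493 and 462 CPM, and neither it (-0.04 ± 0.05, adjusted p = 0.709) nor Pou5f1 (0.08 ± 0.04, adjusted p = 0.245) passed.

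Of 17 genes of the Nodal pathway, primitive streak and mesoderm, 3 were called lower in Ddx10KD and 0 higher (0 higher at an unadjusted p under 0.05), while DESeq2 called 0 either way. Among them were the Nodal antagonists Lefty1 (-0.26 ± 0.07, adjusted p = 0.0354) and Lefty2 (-0.28 ± 0.08, adjusted p = 0.0387). Lefty1 stood at 163, 132 and 135 CPM in Ddx10KD, 217, 142 and 163 CPM in Ddx27KD and 94.8, 72.1 and 71.7 CPM in EGFPKD. Replicate 1 was highest in every group, so the groups overlapped while each pair had the lower value in Ddx10KD. Among other lineage lists, edgeR called 0 of 17 formative and early neural genes (3 higher at an unadjusted p under 0.05, 0 by DESeq2) and 0 of 16 endoderm markers (1 lower at an unadjusted p under 0.05, 0 by DESeq2). Of 9 trophoblast markers Plet1 was called lower (-0.54 ± 0.14, adjusted p = 0.0329). Of 7 fibroblast markers Col1a1 was (-0.74 ± 0.20, adjusted p = 0.0367), and of 28 Wnt and FGF genes Fgf4 (-0.25 ± 0.06, adjusted p = 0.0284). Plet1, Col1a1 and Fgf4 were not called without the block. Their calls were lost in 7, 9 and 7 of the 12 fits with libraries left out. The groups overlapped for Plet1 and Fgf4, and Col1a1 was low in both groups, at means of 0.653 and 1.06 TPM.

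Atf4, a transcription factor that drives the integrated stress response, was lower in Ddx10KD, at 158, 166 and 141 CPM against 197, 209 and 189 CPM in Ddx27KD and 215, 239 and 221 CPM in EGFPKD. No Ddx10KD library reached the Ddx27KD range, a condition of naming genes by p (-0.35 ± 0.04, adjusted p = 5.04e-05, and 0.0683 without the block). Of the 33 genes of this response and of amino acid synthesis and transport, Slc38a2, an amino acid transporter, was the other called member (-0.24 ± 0.06, adjusted p = 0.0208), and the median was -0.056. Against EGFPKD, 26 of these genes were called lower in Ddx10KD and 25 in Ddx27KD, beside 21.3% and 22.6% of all tested genes. Of 20 cytosolic tRNA synthetases, Qars was called lower (-0.20 ± 0.03, adjusted p = 0.00251) and Rars higher (0.15 ± 0.04, adjusted p = 0.0309). That is 5% each way, beside 2.96% lower and 2.39% higher over all tested genes.

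The remaining lists held few called members. Without the block, members were called only in the lists of the targets, the large subunit assembly factors, the 2-cell-like genes and the translation factors. Of 26 glycolysis and hypoxia genes, Gpi1 (-0.19), Ndrg1 (-0.38) and Pkm (-0.15) were called lower and 0 higher (0 also at an unadjusted p under 0.05 and by DESeq2), with a median of -0.109. The pair medians were -0.11, 0.01 and -0.23, so pair 2 did not share the direction. These calls were lost without the block, and the number called lower was 8 without replicate 2 of Ddx27KD, 1 without replicate 1 of Ddx10KD, and 0 without replicate 2 or 3 of Ddx10KD or replicate 1 or 3 of Ddx27KD. Of 29 chaperones, Chordc1 (0.27) and Hsph1 (0.18) were called higher and Calr (-0.17) and Hsp90ab1 (-0.12) lower. That is 6.9% each way, beside 2.39% higher and 2.96% lower over all tested genes. Of 25 RNA sensing and interferon genes, Zbp1 was called lower, at 4.94, 3.39 and 3.78 CPM against 7.31, 5.79 and 7.50 CPM in Ddx27KD and 3.29, 2.54 and 2.32 CPM in EGFPKD (-0.77 ± 0.18, adjusted p = 0.0191). Of 25 sterol genes edgeR called 0 (5 higher at an unadjusted p under 0.05, 0 by DESeq2), with a median of 0.046 and pair medians of 0.147, 0.136 and -0.083. Without replicate 3 of Ddx27KD 7 were called higher, with a median of 0.14, and without replicate 2 of Ddx27KD 0 were, with a median of -0.02.

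**Figure D5:**
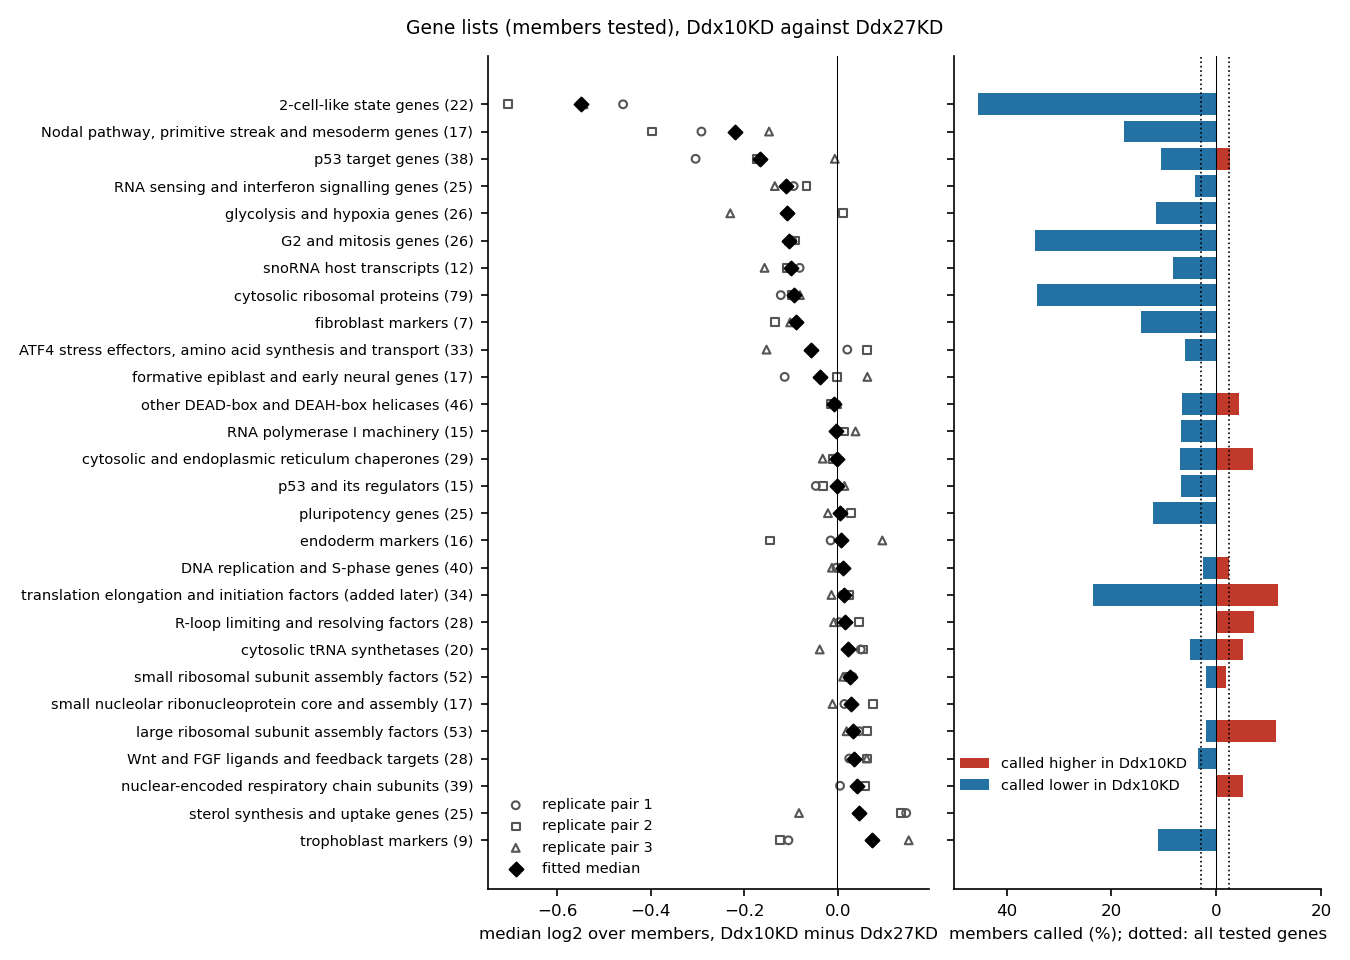
Left, median log2 difference over the tested members of each list (number in brackets), Ddx10KD minus Ddx27KD, fitted (diamonds) and in each replicate pair (open symbols). Right, percent of members called higher (red) or lower (blue) in Ddx10KD, with dotted lines at 2.39% and 2.96% for all tested genes, where 2-cell-like (45.5%), mitosis (34.6%) and ribosomal protein (34.2%) genes hold the longest bars.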

How the data were processed

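Poly(A) RNA from E14 cells was measured in 15 libraries, of which the 3 Ddx10KD and 3 Ddx27KD libraries were compared. Per the submitters' processing notes, the authors used RSEM and the mm10 build. For the aligner, the gene annotation and the version of RSEM, the sources used here give nothing. Of the deposited values, those analysed are, per the file headers, expected counts (estimated reads per gene, not scaled for depth) and TPM, which the authors scaled for gene length and to a common sum. RSEM divides reads shared by similar genes among them, and the strand setting is not stated. The authors' EBSeq tables were not used here.

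Expected counts were rounded, filtered with filterByExpr (14335 genes, 99.97% of the counts) and scaled by TMM. Libraries held 26836946 to 27708782 expected counts. The main test was the edgeR quasi-likelihood test over all 15 libraries with group and replicate number as terms, so that all groups share 1 estimate of the spread. The Benjamini-Hochberg adjustment covered all tested genes, and a gene is called where its adjusted p is under 0.05. The software was edgeR 4.0.16 with limma 3.58.1 in R 4.3.3, and DESeq2 1.42.0 for an alternative. Scripts were tested on simulated data.

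Pairing by replicate number was checked on deviations from the group means. The 30 correlations between same-numbered libraries of different groups were 0.106 to 0.335 (0.249 to 0.305 for the 3 pairs of Ddx10KD and Ddx27KD), and all 15 libraries resembled those of their own number most. The block by replicate number was part of the definition of the comparison. The evidence that equal numbers belong together comes from this check, as the labels give numbers only. Libraries of the same group were further apart than counting noise would give (mean chi-squared per gene 5.81 to 11.1).

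Named genes are the 4 targets, Trp53, Cdkn1a, Mdm2, Pou5f1, Nanog and Sox2, the 12 largest differences and the 8 smallest p in each direction at most, all called, without overlap and with a group mean TPM of 5 or more, and up to 4 called members of each of 28 lists by smallest p. Further called list members are named where a list's count is given. Predicted gene models were counted and not named, apart from list members. Some called genes that the rule gave are not reported here. The members and lists were chosen with earlier results of these data known. The translation factor list and the pyrimidine run were chosen after the values were seen. Alternatives were no replicate block, the 6 libraries alone, DESeq2, limma-voom, RLE and upper-quartile factors, a filter of 10 CPM in 3 libraries and none, libraries left out, an adjusted p under 0.01 and a 2-fold minimum.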

Additional observations from a re-analysis of the deposited data

Results flagged for a closer look

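Of all tested genes, 15 were called in opposite directions against EGFPKD in the 2 knockdowns and were also called directly between them, and the 5 of these that the naming rule gave are described here. Eif4b differed by -0.524 (-0.36 in Ddx10KD and 0.17 in Ddx27KD against EGFPKD), Eif3f by -0.336 (-0.24 and 0.10) and Eef1b2 by -0.325 (-0.24 and 0.08). Rnf166 differed by 0.721 (0.31 and -0.41) and Chordc1, a cochaperone of Hsp90, by 0.268 (0.12 and -0.15). Some calls against EGFPKD were close to the threshold of 0.05. The edgeR adjusted p was 0.0498 for Eef1b2 and 0.0361 for Eif3f in Ddx27KD. It was 0.0493 for Chordc1 and 0.0298 for Rnf166 in Ddx10KD. The 2 comparisons with EGFPKD share their control libraries, so the direct test between the knockdowns is the one that bears on the difference.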

How the results depend on the processing

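The count of called genes moved with the pairing, the threshold and the libraries kept. Against 766 genes with the replicate block (342 higher, 424 lower), the fit with no replicate block called 32 (9 and 23). The 6 libraries alone with the block gave 1357 (636 and 721), and without it 13 (4 and 9). An adjusted p under 0.01 gave 204 (74 and 130) and a 2-fold minimum 16 (3 and 13). With libraries left out the totals ran from 48 to 766, those higher from 13 to 335 and those lower from 35 to 476. Removing an arm's replicate leaves 2 samples there, and removing a replicate number leaves 2 pairs. DESeq2 (678), limma-voom (757), RLE factors (757), upper-quartile factors (775), no count filter (710) and the filter of 10 CPM (794) stayed within 1.5 times. All 766 genes kept their sign without the block and under RLE, upper-quartile factors, DESeq2 and limma-voom. Of the 86 named called genes, 18 were called without the block and 76 by DESeq2. Against EGFPKD a 2-fold minimum left 757 genes in Ddx10KD and 827 in Ddx27KD, and the other alternatives stayed within 1.5 times. No named gene that was called changed sign under an alternative. Of the named genes that were not called, Trp53 (0.031) ran from -0.013 without replicate 3 of Ddx27KD to 0.058 without replicate number 1. Nanog (-0.039) ran from -0.077 without replicate 1 of Ddx10KD to 0.0020 without its replicate 3 and 0.0029 without replicate number 3. The medians of 15 of the 29 lists crossed 0 under at least 1 alternative, 10 of them only with libraries left out, and each of the 15 was within 0.0892 of 0. Genes below about 1 CPM, such as Dux, are limited by their counts.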
